A study of Arabidopsis thaliana with 9 samples.

Results

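The abundant transcripts of the vegetative nucleus of the Arabidopsis thaliana pollen tube are described here. They are the genes with a scaled count of 100 CPM or more in each of the 3 vegetative nucleus libraries, and 852 of the 32833 genes in the count table (2.59%) met this rule. They were chosen by their CPM in these same 3 libraries, so rank and share of counts are given as a description with no test. CPM is a gene's count divided by the library's total count and multiplied by 1000000. It grows with transcript length, so ranks and shares below order genes by their counts. Levels of different genes are compared only as CPM per kilobase (kb), of coding sequence unless stated. Their order depends on the length used.

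Pollen carried the transgenes MGH3p::MGH3-GFP, a sperm histone fused to green fluorescent protein, and ACT11p::H2B-mRFP, a histone fused to a red protein under the promoter of the actin gene ACT11. All 9 libraries come from this labelled line, which the labels give as WT. Vegetative nuclei (3 libraries) and sperm cells (3 libraries) were sorted by fluorescence from in vitro tubes, which had 6 h of growth on medium. Sperm cells were also sorted from semi in vivo tubes (3 libraries), which grew 2 h on an emasculated Col-0 pistil and 4 h after the cut pistil was laid on medium. Nuclei, and not whole vegetative cells, were sampled, and the labels do not say that libraries of a group came from separate plants or growth assays. The spread between them may therefore be technical.

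A pollen grain holds a large vegetative cell, which forms the tube, and a pair of sperm cells that travel inside it. The tube grows at its tip by secreting wall material, mainly pectin, and its growth depends on ion fluxes, actin, small GTPases of the ROP family and surface receptors. Its secreted peptides and wall proteins are among the best known transcripts of pollen.

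Total counts were 13768069, 35157304 and 27331280 in vegetative nucleus libraries 1, 2 and 3, so that 100 CPM stood for 1377, 3516 and 2733 counts. Genes with at least 1 CPM numbered 6299, 10086 and 8405. Library 1, the shallowest, stood apart. Of 314 genes that reached 100 CPM in just 2 of the libraries, 263 fell short in library 1, 17 in library 2 and 34 in library 3. Without library 1, 1115 genes met the rule. Across the 852 genes the Spearman correlation of CPM was 0.93 between libraries 2 and 3, 0.81 between 1 and 2 and 0.75 between 1 and 3. These are correlations across genes of 1 table, and genes are not independent replicates.

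The difference of library 1 followed transcript length. The 53 abundant transcripts with a coding sequence under 300 bp had a median CPM in library 1 that was 2.15 times their mean in libraries 2 and 3, and 48 of the 53 were higher there. For the 153 genes from 300 to under 600 bp the median ratio was 1.39, and 128 were higher in library 1. It was 0.860 for the 290 genes from 600 to under 1200 bp, 0.707 for the 215 genes from 1200 to under 1800 bp and 0.587 for the 138 genes of 1800 bp or more, of which 6 were higher in library 1. The same medians for library 2 over library 3 lay between 0.925 and 1.02. Across the 849 genes with a coding sequence, Spearman's rho between coding length and the ratio was -0.67 for library 1 against the others and -0.13 for library 2 against library 3. The cause of this pattern was not tested, and the values of short and long genes are therefore given per library below.

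**Figure D1:**
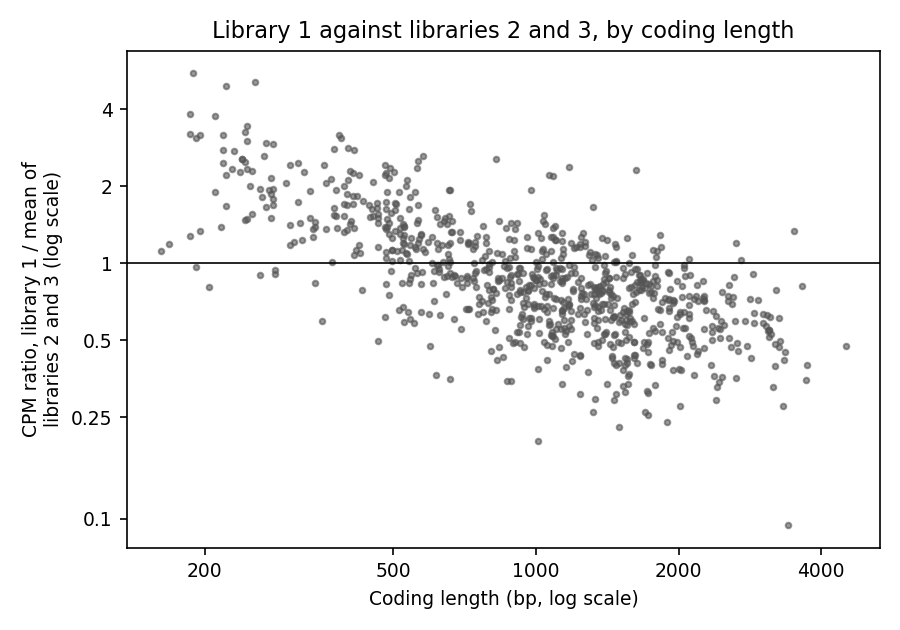
Ratio of the CPM in library 1 to the mean of libraries 2 and 3 (vertical, log scale) against coding length in bp (horizontal, log scale), with a point for each of the 849 abundant transcripts that have a coding sequence. The cloud slopes from a median ratio of 2.15 under 300 bp to 0.587 at 1800 bp or more, and the line marks equal CPM.

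The sorted material carried the transcripts of the vegetative cell. Of 25 marker genes of that cell, 20 were abundant and all 25 had counts, with a summed CPM of 36651, 51012 and 54779.5 in nuclei and 204 to 337 in the 6 sperm libraries. The 5 markers below the rule were AHA6, CNGC18, AGL65, AGL66 and ROPGEF12, at a mean of 44.8 to 129 CPM. Of 14 sperm markers 2 were abundant, DAF1 and GEX1, and the list summed to 3383, 5609 and 2520.1 CPM in nuclei and 201931 to 232033 CPM in sperm. Most of both sums was DAF1, at 2898, 5032 and 1976 CPM in nuclei and 171176 to 207018 in sperm. GEX2 had at most 0.417 CPM in any sperm library. HTR10, the MGH3 gene, had 13.0, 21.4 and 7.61 CPM in nuclei, and its counts cannot be told apart from those of the MGH3-GFP transgene. Of 7 tapetum and pollen coat markers GRP17, GRP19, LTP12, MS1 and CYP704B1 had no count in the nuclei, and the list summed to at most 2.50 CPM. A count of 0 allows up to 3 counts, or 0.218, 0.0853 and 0.110 CPM in the 3 libraries. The 11 photosynthetic markers summed to 10.3, 13.6 and 1.24 CPM and the 10 pistil markers to 0.145, 5.26 and 0.0366 CPM. Most of the photosynthetic sum was RBCS3B, at 8.57, 10.2 and 1.02 CPM in nuclei and 291 to 579 CPM in sperm.

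Few genes made up most of what the nucleus libraries held. The 852 genes took 88.1%, 81.3% and 81.8% of the counts of libraries 1, 2 and 3, or 83.7% ± 3.77 (SD, n = 3). A 95% Wilson interval around each share spanned at most 0.0342 percentage points and covers counting error only. The first 10 genes by mean CPM held 18.5%, 19.3% and 20.7% of the counts and the first 30 held 39.6%, 33.8% and 33.4%. The first 100 held 61.0%, 51.4% and 50.02%. Taking each library's own order, 50% of the counts lay in 49, 88 and 97 genes. Of the 852, 14 had a mean of 10000 CPM or more, 134 a mean of 1000 or more, 282 a mean of 500 or more and 654 a mean of 200 or more, and the median was 345 CPM. A share of counts is relative to the other transcripts, and it gives neither the number of nuclei nor the RNA in each.

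**Figure D2:**
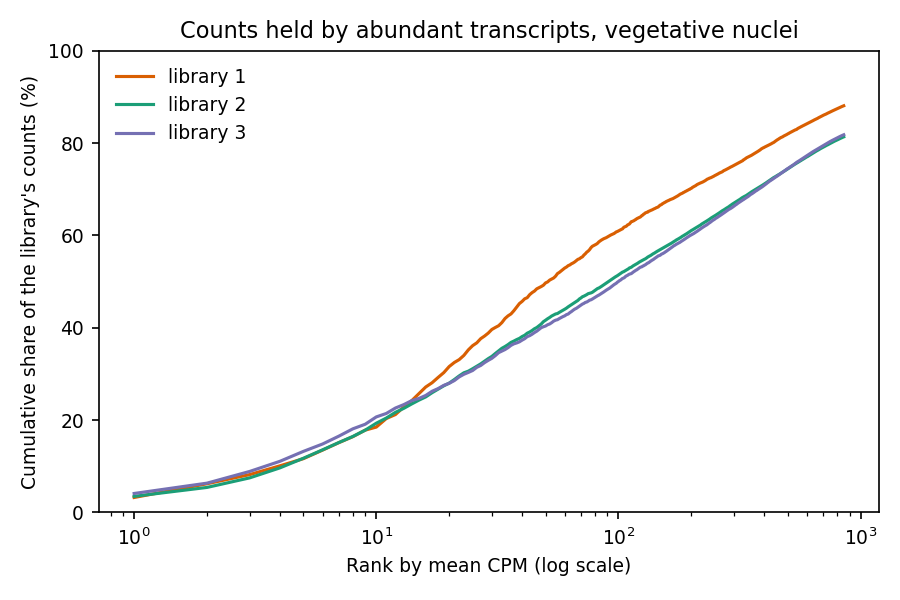
Cumulative share of each vegetative nucleus library's counts (percent) against rank by mean CPM (log scale) for the 852 abundant transcripts, a line per library. The lines run together over the first 10 ranks, and by rank 100 library 1 has reached 61.0% while libraries 2 and 3 stand at 51.4% and 50.02%.

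The 3 libraries shared many of their highest ranks. Of 14 genes that were among the first 10 of any library, 7 were so in all 3, and of 125 genes among the first 100 of any library, 77 were so in all 3. The coefficient of variation (CV, SD over mean of the 3 CPM values) had a median of 25.8%. It was below 10% for 106 genes and above 50% for 89. The 3 genes with the lowest CV were AT5G07430, a pectin lyase-like protein, at 9258, 9169.9 and 9121 CPM, GH9A4, a glycosyl hydrolase, at 2555, 2567 and 2499 CPM, and AT3G56180, of unknown function, at 704, 713 and 725 CPM. The 3 with the highest CV were AGP40, LCR15 and AT2G35765, with coding sequences of 189, 255 and 222 bp. AGP40, an arabinogalactan peptide, had 5611 CPM in library 1 and 956 and 1077 in libraries 2 and 3, and LCR15, a cysteine-rich peptide, had 847, 185 and 147. Highest in library 1 were 253 genes and lowest there 482.

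**Figure D3:**
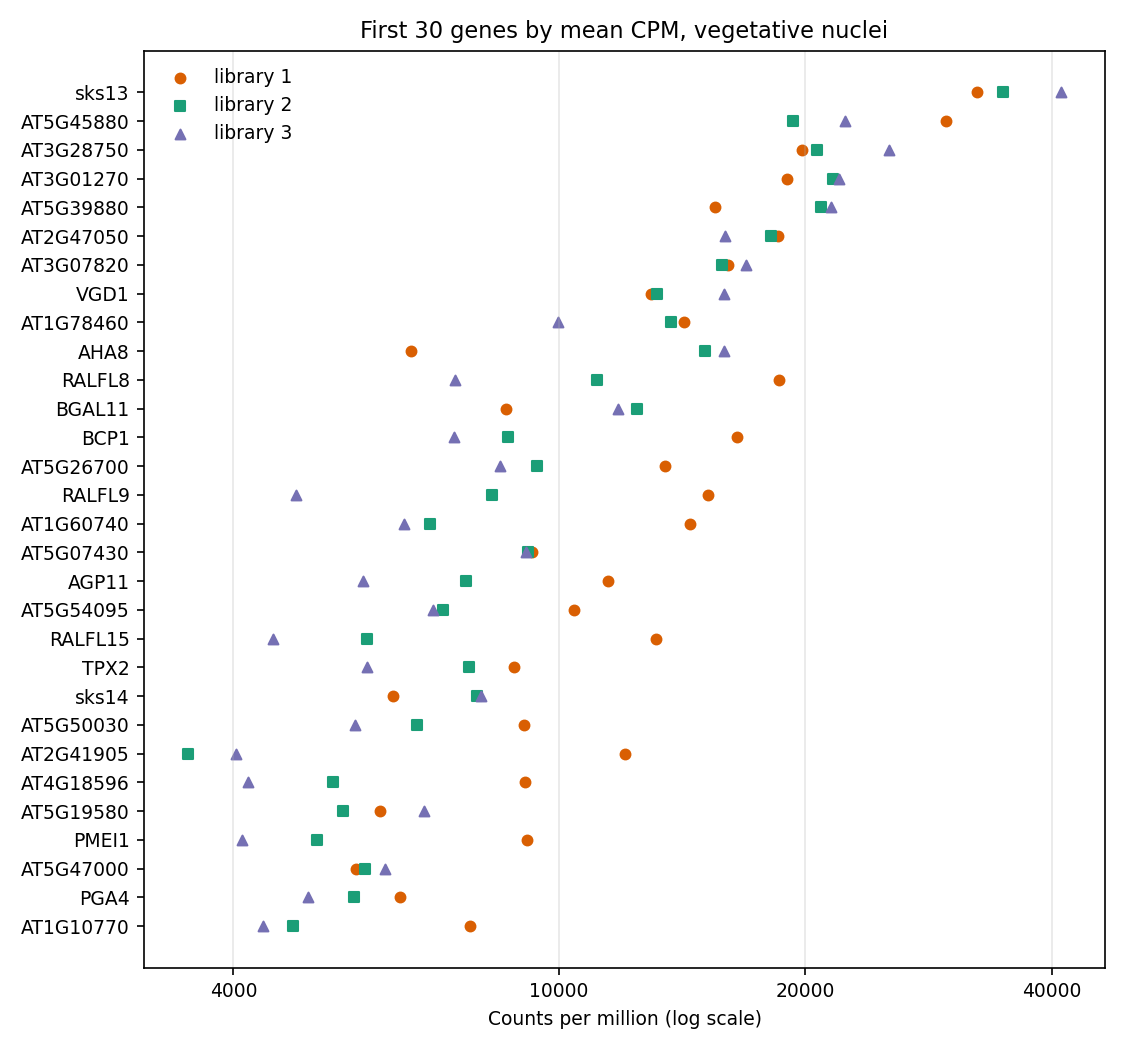
CPM (log scale) of the first 30 genes by mean CPM in vegetative nucleus libraries 1, 2 and 3, a point per library. The gene sks13 stands highest in each library, between 32380.1 and 41079 CPM, and short genes such as RALFL15 and AT2G41905 lie far higher in library 1 than in the other two.

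Genes of the pectin class held the largest mean share of counts, although in library 1 small secreted proteins held more, 16.2% against 14.8%. This ranking depends on the order of the word rules that set the classes. With the order reversed, 44 genes of the wall, pectin and secreted classes, with 14.98% of the counts, passed to metabolic and redox enzymes. Pectins are the main wall polymers at the tube tip, and their methyl groups and chain length are set by methylesterases, their inhibitors and chain-cutting lyases and polygalacturonases. The 31 abundant genes of this class, of 252 in the table, held 14.8%, 13.7% and 13.7% of the counts, or 14.1% ± 0.660 (SD, n = 3). The 3 libraries therefore gave nearly the same share. Of the 31, 20 were among the first 100 ranks, and the median of their mean CPM was 2284, against 345 over all 852, a difference in counts that is not scaled by length.

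The pectate lyase AT3G01270 had 19018, 21650.4 and 21963 CPM. AT2G47050, annotated in the invertase and pectin methylesterase inhibitor family, had 18528, 18157 and 15972 CPM. The pectin lyase-like gene AT3G07820 had 16100, 15826 and 16932 CPM. In each of these genes the lowest and highest library differed by far less than in the short genes above. VGD1, a pectin methylesterase needed for tube growth through the style, had 12954, 13161 and 15905 CPM. Its neighbour and homolog VGDH1 had 4160 CPM in library 1, 4759.9 in library 2 and 4985 in library 3. Their coding sequences are 90.0% identical in alignment, so the split of reads between them is uncertain, as it is not known how reads with several matches were counted. PMEI1, a pectin methylesterase inhibitor, had 9152, 5060.2 and 4099 CPM and was highest in library 1. PGA4, a polygalacturonase, had 6386, 5619 and 4929 CPM. PPME1, another pollen methylesterase, had 673, 424 and 554 CPM.

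Abundant genes made up 12.3% of the pectin class, against 2.59% of all genes in the table. The invertase and pectin methylesterase inhibitor family has 111 genes in the table, of which 16 were abundant and carried 99.2% of the family's counts in the nuclei. In the pectin lyase-like family 11 of 111 genes carried 98.97%, and 3 of the 6 pectate lyases carried 99.3%. The rule chose these genes by the same counts, which favours such high shares, and nothing is read from them.

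Other wall genes came next by mean share of counts. The 55 genes of this class, of 586, held 12.5%, 11.9% and 11.98% of the counts, or 12.1% ± 0.353. First of all ranks was sks13, a SKU5-like protein of the multicopper oxidase family, with 32380.1, 34849 and 41079 CPM. Of 19 SKU5-like genes 4 were abundant, and these, sks11, sks12, sks13 and sks14, held 4.86% ± 0.601 of the counts (n = 3). They also held 99.97% of the family's counts, a share that the rule favours by choosing high counts. They form 2 pairs of adjacent genes, sks11 with sks13 and sks12 with sks14. BGAL11, a beta-galactosidase, had 8614.5, 12457 and 11822 CPM. AGP11, an arabinogalactan protein that acts with AGP6 in pollen, had 11472 CPM in library 1, 7690.4 in library 2 and 5769 in library 3, while AGP6 had 2984, 1269.7 and 1606 CPM. EXPA4, an expansin that loosens walls, had 4463, 3326 and 3090.0 CPM.

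Small secreted proteins varied most between libraries. The 56 genes of this class, of 506, held 16.2% of the counts of library 1 and 8.99% and 8.16% of libraries 2 and 3, or 11.1% ± 4.41. Their median coding length was 306 bp, in the range where library 1 was higher. Per kb of coding sequence, this class held 26.9% ± 5.25 of the CPM per kb of all 852 genes, the largest share of any class. The pectin class held 12.6% ± 1.46 and the other wall genes 10.7% ± 0.710 on that scale, genes with no description 15.9% ± 0.871 and described genes outside the classes 12.3% ± 0.263. Class shares were not computed per kb of summed exon length.

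RALF peptides are secreted signals, and some are ligands of the receptors that keep the tube wall intact. Of 37 RALF genes 11 were abundant and held 7.16%, 3.58% and 2.81% of the counts. RALFL8 had 18556 CPM in library 1, 11135 in library 2 and 7461 in library 3, and RALFL9, a near neighbour on the same chromosome, had 15217, 8277 and 4768. Their coding sequences are 83.1% identical in alignment. Per kb of coding sequence RALFL8 had the highest mean of all abundant transcripts, 49735 CPM per kb, followed by the Ole e 1 family gene AT5G45880 at 45366 and RALFL9 at 41319. Below these the order per kb was AT2G41905 at 35118, RALFL15 at 32545, BCP1 at 30209, AT2G47050 at 26962, AT5G60615 at 22014, AT3G28750 at 21900.3 and sks13 at 21801 CPM per kb. The last 3 of these differ by less than the SD of sks13's CPM, which is 12.4% of its mean, so their order is not resolved. The order at the top also differed between libraries. RALFL8 had 74523, 44718 and 29965 CPM per kb in libraries 1, 2 and 3, and AT5G45880 had 56655, 36832 and 42610.0. RALFL9 had 66739, 36304 and 20914 CPM per kb, and sks13 had 19553, 21044 and 24806. In library 3 AT5G45880 was therefore above RALFL8 and sks13 above RALFL9, and over libraries 2 and 3 alone AT5G45880 had the highest mean, 39721 CPM per kb against 37341 for RALFL8. Thus 4 of the first 10 genes by CPM were also among the first 10 per kb of coding sequence, and 73 of the first 100. The order changed per kb of summed exon length, which also takes in exon bases outside the coding sequence. On that scale AT5G45880 was first at 25582 CPM per kb and RALFL8 was at rank 2 with 23455. There sks13 was at rank 4, AT2G41905 at rank 18 and AT5G60615 at rank 21.

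Ole e 1 proteins are a family of secreted pollen allergens. AT5G45880 had 29744, 19337 and 22370.2 CPM and AT4G18596 had 9097, 5290.1 and 4172. Plant thionins were 15 of 46 genes, with means of 224 to 752 CPM, and all 15 were below 1 CPM in every sperm library. Proteins of the self-incompatibility S1 family, named after a stigma protein of poppy, were 13 of 60 genes with means of 311 to 3183 CPM. Of 92 genes described as defensin-like 2 were abundant, a share near the 2.59% of all genes that met the rule. Among them was AT5G60615 at 8901, 3795 and 3154 CPM.

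The ligands, receptors and wall partners of the pathway that keeps the tube tip intact were abundant together. The ligand genes RALFL4 and RALFL19 had 2829, 1657 and 2113 CPM and 5676, 2812 and 3107 CPM. The receptor kinase gene ANX1 had 285, 497 and 626 CPM and its partner ANX2 had 546, 1114 and 1202. BUPS1, another receptor of this complex, had 1104, 1975 and 1760.2 CPM and BUPS2 had 162, 153 and 216. Both ligand genes were highest in library 1, whereas ANX1, ANX2 and BUPS1, which have longer coding sequences, were lowest there. The coreceptor gene LLG2 had 1750.1, 796 and 696 CPM and LLG3 had 112, 147 and 122. The 4 leucine-rich repeat extensins of pollen, LRX8 to LRX11, which bind RALF peptides in the wall, had means of 1168 to 1479 CPM.

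Kinases, small GTPases and calcium signalling formed the class with most genes, 141 of 1785, a ranking that may depend on the order of the word rules. Yet these genes held 4.94%, 6.60% and 6.96% of the counts, or 6.17% ± 1.08. None was among the first 30 ranks and 5 were among the first 100. The calcium-dependent kinase CPK24 had 1524, 1892 and 2072 CPM and CPK17 had 1351, 1389.5 and 1971. AT1G70790, a calcium-dependent lipid-binding family gene, had 1918.5, 1799 and 1581 CPM. Pollen receptor kinases PRK1, PRK2, PRK4, PRK5 and PRK6, which act on ROP signalling, were 5 of 8 such genes, at means of 122 to 512 CPM. PRK6, which senses the ovule attractant LURE1, had 239, 385 and 460.4 CPM. Of 14 RopGEF genes, activators of ROP, ROPGEF8, ROPGEF9, ROPGEF11 and ROPGEF13 were abundant, and ROPGEF12, a marker, was not, at 38.9, 61.8 and 33.7 CPM. Of 11 RIC genes, effectors of ROP, RIC1, RIC3 and RIC5 were abundant at means of 282, 151 and 469 CPM.

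Ion and nutrient transport was led by a single pump. AHA8, a plasma membrane proton ATPase, had 6600.2 CPM in library 1 and 15062 and 15895 in libraries 2 and 3. It was the only abundant gene of 12 in its family, and AHA6, its relative in pollen, missed the rule through library 1, at 40.3, 140.2 and 155 CPM. The whole class, 42 of 845 genes, held 2.16%, 4.04% and 4.43% of the counts, or 3.54% ± 1.22. OPT1, an oligopeptide transporter, had 2456, 4444 and 4465 CPM, and CHX23, a cation exchanger, had 2207, 3154 and 2829. In all, 9 of 29 CHX genes were abundant. The calcium pump ACA9 had 828, 1434 and 1285 CPM and the potassium channel SPIK had 129, 292 and 275. The sucrose carrier SUC9 had 237, 536 and 1008 CPM and the sugar carrier STP4 had 301, 572 and 844, both lowest in library 1.

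Cytoskeleton genes were 36 of 261 and held 1.83%, 2.15% and 2.65% of the counts. Actin genes ACT11, ACT12, ACT4, ACT2 and ACT1 were abundant, 5 of 10. ACT11, whose promoter drives the red reporter used in the sort, had 734, 939 and 1291 CPM. The tubulin genes TUB9 and TUB4 had means of 1668 and 1557 CPM, and 9 of 15 tubulin genes were abundant. The actin severing factor ADF7 had 1605, 1489 and 1493 CPM. Genes of membrane traffic were 45 of 347 and held 1.84%, 2.19% and 2.20%. They were led by the SEC14-like lipid transfer proteins SFH3 at 3327, 3771 and 3619 CPM and SFH12 at 2253, 2349.8 and 2401.5. Another gene of that family, SEC14 (AT4G39180), had 1247, 1962 and 1205 CPM. The syntaxin gene SYP131 had 478, 543 and 582 CPM.

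Metabolic and redox enzymes were 129 of 4314 genes and held 8.42%, 8.83% and 8.86% of the counts, or 8.70% ± 0.244. AT1G60740, in the thioredoxin superfamily, had 14461, 6948 and 6463 CPM, and TPX2, a thioredoxin-dependent peroxidase, had 8810.2, 7764 and 5824. Their coding sequences are both 489 bp and 96.3% identical, so their separate values are uncertain. The glyoxal oxidase-related gene AT5G19580 had 6043, 5447 and 6847 CPM and the peroxidase AT5G47000 had 5646, 5787 and 6137. In protein turnover, 53 of 1981 genes held 2.29%, 3.32% and 3.29%, led by the serine carboxypeptidase-like genes scpl37 at 2391, 3947 and 3847 CPM and scpl38 at 2554, 3694 and 3767.

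Regulators of gene expression made up little of what the nuclei held. Transcription and chromatin genes, 20 of 1276, held 0.439%, 0.503% and 0.527% of the counts, and genes of RNA and translation, 16 of 856, held 0.577%, 0.741% and 0.743%. None of either class was among the first 100 ranks. MYB97, MYB101 and MYB120, which together set the tube's readiness for sperm release, had means of 212, 501 and 509 CPM, and AGL104, a pollen MADS-box factor, had 126, 349 and 302. The bZIP factor AT1G35490 had 721, 752 and 611 CPM. ALY3 (AT1G66260), of a family of RNA export adaptors, had 543, 1608 and 1539 CPM. The zinc finger gene ZFN3 had 652, 878 and 932 CPM, and RBP-DR1, an RNA-binding protein, had 519, 671 and 1022. Of 366 genes described as ribosomal proteins 2 were abundant, and all 366 together held 0.0795% of the nucleus counts on average against 0.269% to 0.304% in the sperm libraries, a difference that was not tested. No histone gene of 54 was abundant, and all 54 together held 0.0580% of the nucleus counts against 0.288% to 0.497% in sperm. That difference was not tested either. Histone counts in sperm may include those of the MGH3-GFP transgene, as HTR10, the MGH3 gene, had 857 to 1540 CPM there. Likewise, histone counts in nuclei may include those of the H2B-mRFP transgene. Stress and late embryogenesis genes were 11 of 127 and held 0.462% ± 0.0815, led by SAG21 at 1896, 939.6 and 504 CPM. SRC2 had 1042, 889 and 953 CPM, and HVA22J had 658, 757 and 637 CPM in nuclei and 782 to 1026 in sperm.

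**Figure D4:**
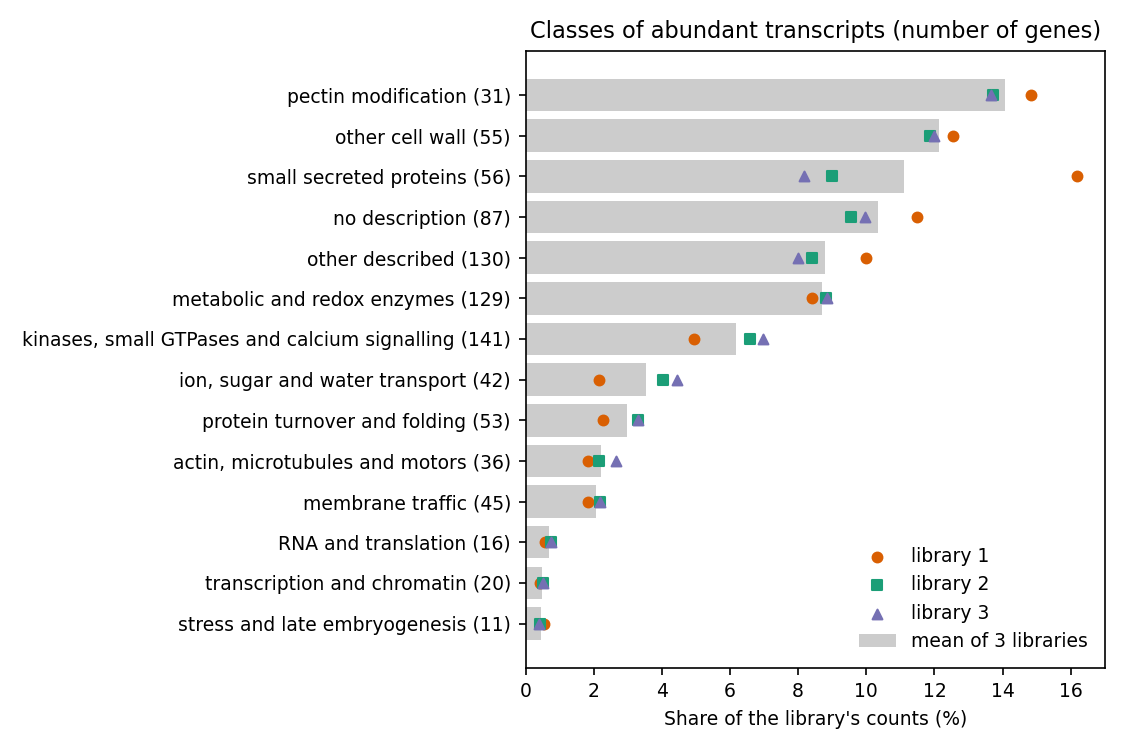
Share of counts (percent) held by the abundant transcripts of each class, with bars for the mean of 3 vegetative nucleus libraries, points for each library and the number of genes in parentheses. Pectin modification is highest at 14.1%, and small secreted proteins spread widest, from 8.16% to 16.2%.

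The 3 classes of pectin, other wall and small secreted proteins together held 142 of the 852 genes and 43.6%, 34.6% and 33.8% of the counts, or 37.3% ± 5.42. They filled 18 of the first 30 ranks and 53 of the first 100. The classes came from words in the deposited names and descriptions, matched in a fixed order. With the order reversed, 44 wall and pectin enzymes worth 14.98% of the counts were counted as metabolic enzymes, and the 3 classes held 22.3%. Of the abundant transcripts 87 have no description and held 11.5%, 9.56% and 9.95% of the counts. AT3G28750, at rank 3, had 19819, 20671 and 25343 CPM, and AT5G39880 had 15506, 20879 and 21499. AT5G54095 had 10434, 7213 and 7012 CPM and AT2G41905, with a coding sequence of 186 bp, had 12039, 3521 and 4035. Of the 130 genes with a description outside the classes, AT1G78460, in the SOUL heme-binding family, had 14217, 13693 and 9961 CPM. BCP1, a homolog of a pollen protein of Brassica campestris, had 16517, 8665 and 7444, and the cupin AT5G26700 had 13460.2, 9409 and 8479.7.

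Of the 852 genes, 849 are protein-coding, and none is encoded in an organelle. The other 3 were the ribosomal RNA gene AT3G41768, at 1275, 3252 and 2326 CPM, and the long noncoding RNA genes AT4G04077, at 1068, 711 and 540 CPM, and AT3G05665, at 623, 317 and 376. All ribosomal RNA genes together held 0.128%, 0.326% and 0.234% of the counts. Of the 10 genes with the highest mean that missed the rule, 2 were noncoding, and each of the 10 fell short in library 1. These were AT4G36648, at 82.3, 860.5 and 774 CPM, and GUT15, at 34.1, 637 and 471.

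At the limit of the rule genes differed little. Just inside were AT3G01520, an adenine nucleotide alpha hydrolase-like gene with a lowest CPM of 100.01, CCT2, an enzyme of phosphatidylcholine synthesis, with 100.1, and CHX10 with 100.5. Just outside were the ureide permease gene UPS4 with 99.9, the adenosylmethionine decarboxylase gene AT5G15950 with 99.8 and the zinc finger gene AT3G52800 with 99.8.

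In all 6 sperm libraries 604 of the 852 genes (70.9%) were below 10 CPM, against 79.3% of all 18660 genes with a count in the nuclei. Below 1 CPM in all 6 were 193 (22.7%), against 32.1%. These 193 took 10.1%, 8.46% and 9.26% of the nucleus counts and at most 0.00857% of any sperm library's. For 780 genes every sperm library was below every nucleus library, as for 11.6% of all genes with a count, but the rule chose high nucleus values and nothing is read from this. The comparison with sperm sets a nucleus beside a whole cell, and it was not tested here. The first 50 genes were picked by their nucleus mean, which favours low ratios, so nothing is read from those ratios. In 48 of these genes the mean CPM over the sperm libraries was 0.0101% to 0.151% of that in nuclei, with a median of 0.0221%. The exceptions were DAF1 and AT2G47050, which had 106 to 138 CPM in the sperm libraries, 0.669% of its mean in nuclei. VGD1, the next gene on the chromosome to AT2G47050, had 0.760 to 8.49 CPM there.

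A total of 699 genes had 100 CPM or more in all 6 sperm libraries, and 85 of these were abundant in nuclei, 9.98% of the nucleus list and 12.2% of the sperm list. Of all genes with a count in the nuclei 3.75% had 100 CPM or more in all sperm libraries. The 85 held 4.95%, 5.93% and 5.11% of the nucleus counts. The 5 with the highest mean in nuclei were AT2G47050, DAF1, MIOX4, SAMDC and TUA2. MIOX4, a myo-inositol oxygenase of the route to wall sugars, had 2212, 2055 and 1815 CPM in nuclei and 5002 to 6483 in sperm. SAMDC, an enzyme of polyamine synthesis, had 1066, 1928 and 1919 CPM in nuclei and 145 to 216 in sperm. TUA2, an alpha tubulin, had 1231, 1347 and 1855 CPM in nuclei and 160.1 to 330.1 in sperm.

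For 13 of the abundant genes the sperm mean was at least 10 times the nucleus mean, a group picked after these values were seen. Of all genes with a count in the nuclei 20.9% met that ratio. They include 9 of the first 10 genes of the sperm libraries. DAF1, an F-box gene activated by the sperm regulator DUO1, had 2898, 5032 and 1976 CPM in nuclei and 171176 to 207018 in sperm. The cyclin gene CYCD7;1 had 524, 619 and 219 CPM in nuclei and 30464 to 38819 in sperm. GEX1, a gamete nuclear membrane protein, had 103, 209 and 412 CPM in nuclei and 2952 to 6161 in sperm. The 13 genes stood at a median of 1.73%, 2.12% and 1.02% of their sperm mean in libraries 1, 2 and 3. Library 2 was the highest for 10 of them and library 3 the lowest for 11, and their median CV was 43.9% against 25.8% for all 852. They held 0.794%, 1.08% and 0.496% of the nucleus counts and 43.2% to 48.9% of the sperm counts. GEX1 differed from most of them, at 2.22%, 4.49% and 8.82% of its sperm mean. Low percentages were not particular to abundant genes. Of sperm genes that missed the rule, DAZ3 stood at 1.58%, 1.25% and 0.431% and PCR11 at 1.58%, 2.04% and 0.725%. EIN3, at 1.28%, 3.19% and 1.33%, was lowest in library 1. Whether sperm RNA in the sorted nuclei has a part in these values was not tested. Without the 13, 839 genes held 83.0% of the nucleus counts on average.

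**Figure D5:**
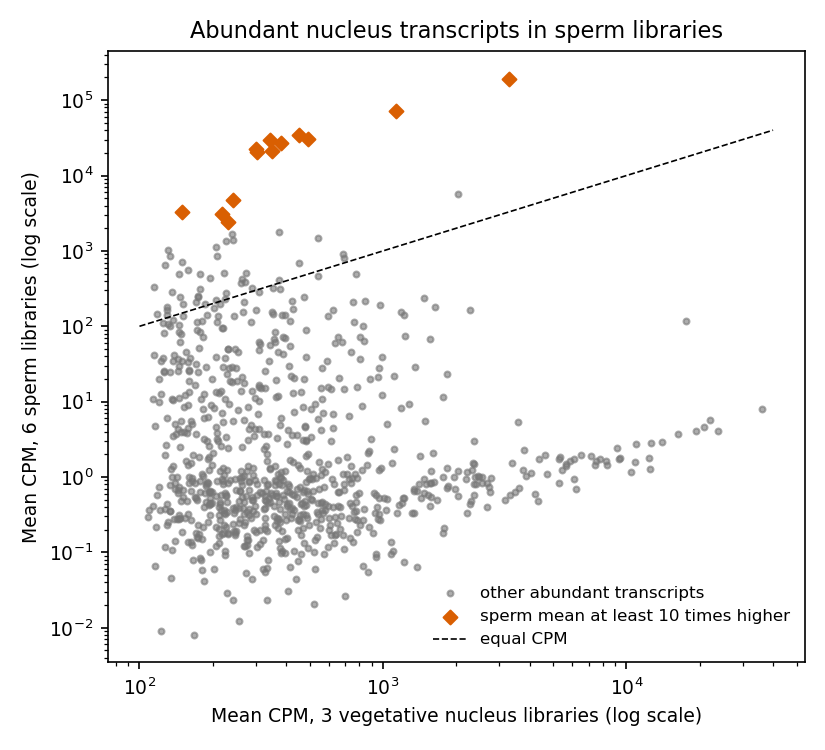
Mean CPM over the 6 sperm libraries (vertical) against mean CPM over the 3 vegetative nucleus libraries (horizontal), both on log scales, with a point per abundant transcript. Diamonds mark the 13 genes with a sperm mean at least 10 times the nucleus mean, far above the dashed line of equal CPM. The first 50 ranks, picked by nucleus mean, lie at 0.0101% to 0.151% of their nucleus level apart from DAF1 and AT2G47050.

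The rule used neither the position of a gene nor its promoter letters, but counts grow with transcript length, so coding length and exon number are not independent of it. The 849 protein-coding genes had a median coding length of 1068 bp, a median of 4 exons and 18.8% with a single exon, against 1047 bp, 4 exons and 18.9% over 27444 protein-coding genes on the nuclear chromosomes. Coding sequences of up to 450 bp made up 13.1% of the abundant genes and 16.1% of all. The chromosomes held 24.3%, 15.9%, 21.6%, 15.3% and 23.0% of them, from chromosome 1 to 5, against 26.1%, 15.7%, 19.9%, 15.2% and 23.1% of all genes. Abundant genes lay side by side more often: 14.8% had another abundant gene as the next protein-coding gene on either side, against 6.07% of all genes, with no test made. Among the first 100 ranks 7 such adjacent pairs were found. They were VGDH1 with VGD1, VGD1 with AT2G47050, sks11 with sks13, sks14 with sks12, AT3G01230 with AT3G01240, scpl36 with scpl37 and VGDH2 with AT3G62180. Aligned coding sequences of the pairs were 28.4% to 90.0% identical.

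Promoters were read as the 250 bases before the annotated start of each gene. The MEF2-type CArG box is a palindromic A and T rich motif bound by MADS-box factors of pollen such as AGL65, AGL66 and AGL104. It was found in 82 of 849 promoters (9.66%), against 591 of 27444 (2.15%) of all protein-coding genes and 1.91% of those that were not abundant. The share was 24.2% over the first 100 ranks, 15.2% over the next 100, 7.54% over the next 200 and 6.19% above rank 400. Among classes it was highest in pectin modification, 8 of 31 promoters, and other wall genes, 11 of 55, and it was found in 0 of 53 genes of protein turnover and 0 of 16 of RNA and translation. In genes with no count in the nuclei it was 1.75%, and in genes at 100 CPM or more in all sperm libraries that were not abundant in nuclei 1.31%. The median match lay 91 bases before the start, with quartiles of 58.3 and 131 bases. A match is a run of letters and does not show binding.

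Other motifs were searched on either strand. TATAAA, which a CArG match can contain, was in 48.4% of abundant promoters and 47.3% of all. TGTGGTT, named from the tomato pollen gene LAT52, was in 4.71% and 4.39%. Over the first 100 ranks these shares were 57.6% and 9.09%. GTGA was in 74.8% of abundant promoters, 77.5% of all and 72.7% of those of the first 100 ranks. None of these differences was tested.

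The 6 highest-ranked genes with a CArG match are shown, because they let the box be seen in genes that take a large share of the nucleus counts. Each run is the 250 bases before the start, 5′ to 3′ on the gene's strand, from RefSeq TAIR10.1, and capitals mark the MEF2-type CArG box.
AT3G28750, chr3:10792847-10793096, minus strand: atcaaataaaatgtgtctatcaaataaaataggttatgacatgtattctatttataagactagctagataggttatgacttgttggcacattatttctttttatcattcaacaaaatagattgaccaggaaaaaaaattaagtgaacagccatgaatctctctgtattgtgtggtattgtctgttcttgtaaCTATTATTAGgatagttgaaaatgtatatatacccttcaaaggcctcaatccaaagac
AT3G01270, chr3:84902-85151, minus strand: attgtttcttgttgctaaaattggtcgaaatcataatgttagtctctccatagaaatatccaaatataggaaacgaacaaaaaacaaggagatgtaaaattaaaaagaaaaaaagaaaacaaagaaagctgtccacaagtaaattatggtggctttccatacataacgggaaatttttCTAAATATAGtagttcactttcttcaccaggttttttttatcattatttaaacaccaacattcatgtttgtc
AT5G39880, chr5:15970637-15970886, plus strand: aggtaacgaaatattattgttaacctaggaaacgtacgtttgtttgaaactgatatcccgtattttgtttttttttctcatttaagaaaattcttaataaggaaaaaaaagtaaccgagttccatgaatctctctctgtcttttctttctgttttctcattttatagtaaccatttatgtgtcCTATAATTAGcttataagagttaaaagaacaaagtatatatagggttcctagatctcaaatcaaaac
VGD1, chr2:19330198-19330447, minus strand: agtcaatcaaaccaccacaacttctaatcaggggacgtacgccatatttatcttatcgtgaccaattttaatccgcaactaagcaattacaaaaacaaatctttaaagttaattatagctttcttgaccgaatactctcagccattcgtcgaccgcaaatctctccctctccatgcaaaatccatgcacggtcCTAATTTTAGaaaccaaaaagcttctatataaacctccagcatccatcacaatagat
AHA8, chr3:14723853-14724102, plus strand: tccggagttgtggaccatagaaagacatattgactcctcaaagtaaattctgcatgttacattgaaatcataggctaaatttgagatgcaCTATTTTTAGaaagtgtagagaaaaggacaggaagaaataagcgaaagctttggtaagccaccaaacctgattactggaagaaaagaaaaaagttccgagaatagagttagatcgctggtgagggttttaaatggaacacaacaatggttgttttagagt
TPX2, chr1:24558323-24558572, minus strand: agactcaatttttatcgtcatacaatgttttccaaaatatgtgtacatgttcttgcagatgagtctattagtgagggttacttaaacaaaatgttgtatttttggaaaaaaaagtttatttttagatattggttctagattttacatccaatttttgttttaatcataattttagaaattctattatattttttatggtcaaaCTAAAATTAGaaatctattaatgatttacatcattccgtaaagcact
The box lay 58, 72, 67 and 57 bases before the start of AT3G28750, AT3G01270, AT5G39880 and VGD1, 160 bases before that of AHA8 and 47 before that of TPX2. Of the 82 promoters 3 held more than a single match, those of AT3G01240, AT3G01250 and GH9B11. The stretches of AT3G01240 (chr3:79038-79287, minus strand) and AT3G01250 (chr3:79047-79296, plus strand) overlap, so these 2 promoters are not independent.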

How the data were processed

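RNA of sorted vegetative nuclei (3 libraries) and sperm cells (6 libraries) was measured with Smart-seq2, which amplifies full-length cDNA by PCR with no molecular identifiers and no strand information, per the labels. The authors deposited raw counts per gene for 32833 genes, and the submitters' processing notes list Trim Galore, HISAT2 and featureCounts as tools and TAIR10 as the genome. For their versions, the strand setting and the handling of reads with several matches no source used here has an entry, so close paralogs and antisense partners are uncertain. All 9 sample columns were used.

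Counts were divided by the library total and multiplied by 1000000, with Python 3.11.15, pandas 2.3.3 and NumPy 2.4.6. Genes with 100 CPM or more in all 3 nucleus libraries were kept. The members and lists were chosen with earlier results of these data known. No test between groups was made. The text names the first 30 genes by mean CPM, the 3 highest of each class, the 10 highest per kb, the 3 lowest and highest CV, the 3 genes on each side of the limit, the 5 highest that also have 100 CPM in all sperm libraries, noncoding genes and some of the markers. Other genes named as family members were chosen after their values were seen. Some of the first 30 appear in the plot alone.

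Of the genes, 32548 were found in the RefSeq TAIR10.1 gene table, which gave biotypes and symbols. It has the same nuclear chromosome sequences as TAIR10. Coding length is the longest coding sequence in that annotation, and promoters are 250 bases before the start. The 12 classes were assigned from words in the deposited names and descriptions. Their patterns were corrected after the first version matched wrong words, and the first version was kept as an alternative. EXL4, EXL6, A9 and STIG1 matched no single gene and were left out of the marker lists. Coding sequences were aligned with Biopython 1.88, and TMM and RLE factors came from edgeR 4.0.16 under R 4.3.3. The code of the member rule was run on simulated counts with counting noise alone and no gene near the limit. That run checks the code only, as it held no difference between libraries like that of library 1. Intervals are from SciPy 1.17.1.

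Alternatives were other CPM limits, 2 of 3 libraries, the mean, nucleus-encoded totals, TMM and RLE scaling, thinning to the shallowest library, values per kb, each nucleus library left out, and the class rules in reverse order. Added after seeing the data were summed exon length, the class patterns as first written, and leaving out the 13 genes with a sperm mean at least 10 times the nucleus mean.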

Additional observations from a re-analysis of the deposited data

How the results depend on the processing

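The number of abundant transcripts, 852, rose to 1312 at a limit of 50 CPM and fell to 492 at 200 CPM. Their share of counts, 83.7%, became 88.9% and 76.3% at those limits. TMM and RLE scaling gave 892 and 893 genes, thinning 847, nucleus-encoded totals 852, 2 of 3 libraries 1166, and 100 CPM per kb 857 (coding) or 596 (summed exons). With a nucleus library left out the number was 869 to 1115, and the share of the first 100 ranks was 51.01% to 56.4%, against 54.1% with all 3. The share of pectin, wall and secreted genes was 37.3%. It was 22.3% with the class rules reversed, as their enzymes then count as metabolic, 30.8% with the patterns as first written, and 50.1% when shares were taken of the members' CPM per kb. The number also abundant in sperm, 85, was 86 to 106 with a nucleus library left out and 72 without the 13 genes higher in sperm. The 193 genes below 1 CPM in all sperm libraries became 211 with the in vitro sperm libraries alone. Among the first 30 genes the mean of AT2G41905 fell from 6532 to 3778 CPM without library 1 and that of RALFL15 from 7811 to 5148. No paired analysis was possible because no result comes from a test. In library 1 alone 263 genes missed the rule, and the cause was not tested.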
